A study of Saccharomyces cerevisiae with 18 samples.

Results

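Messenger RNA of the budding yeast Saccharomyces cerevisiae strain YJM975 was compared between cultures labelled as grown in ethanol and cultures labelled as grown in glucose. The comparison holds 6 libraries, 3 per medium, and its members are the transcripts with a mean of at least 1 TPM (transcript abundance per length, at 1 total for every library) over these 6 libraries, 6237 of the 6612 in the table. Of the other 375, 148 stood at 0 in all 6 libraries. The member nearest the limit was YCR108C, with a mean of 1.0024 TPM, and the nearest transcript outside it YGR107W, with 0.9985 TPM. Some passed through 1 group alone, 57 with an ethanol mean and 128 with a glucose mean below 1 TPM. YJM975 is a clinical isolate, used here as a homozygous a/α diploid. Medium of the ethanol group was S-CSM, a synthetic medium with complete supplements, with 2% ethanol, and that of the glucose group S-CSM with 2% glucose. Cultures of 5 mL, biological triplicates per the series design, were taken while still growing exponentially (optical density 0.5 to 1.0, per the labels). The series also holds YJM975 in 2% glycerol and the vineyard-derived diploid RM11 in all 3 media, 18 libraries in all. The ethanol libraries of both strains carry 1 run label in their descriptions and the glucose libraries another, so medium and run label cannot be told apart.

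Baker's yeast prefers glucose. While glucose is present, the Mig1 repressor and its partners shut off genes for other carbon sources and for respiration, and most pyruvate goes to ethanol through pyruvate decarboxylase and Adh1. Growth on ethanol reverses this flow. Adh2, aldehyde dehydrogenases and acetyl-CoA synthetases turn ethanol into acetyl-CoA, and the glyoxylate cycle (Icl1, Mls1) makes dicarboxylic acids from it. Gluconeogenesis (Pck1, Fbp1) rebuilds sugars, and the respiratory chain, under the Hap2/3/4/5 activator, supplies energy. Fast growth on either source is accompanied by high mRNA for ribosomal proteins, and slow growth by high mRNA for stress proteins.

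Since each library sums to 1000000 TPM, read depth cannot be recovered and counting error is not given. Between replicates, Pearson r over genes (not independent points) was 0.994 to 0.998, and no libraries held identical values. Glucose replicate 3 stood apart. Together 6 transcripts, TAR1 and those named YLR154C-G, YLR154W-A, YLR154W-B, YLR154W-E and YLR154W-F, took 1.14, 1.09 and 1.37% of all TPM in the ethanol libraries, against 0.384, 0.392 and 6.99% in the glucose libraries. The excess in glucose replicate 3 lay mostly in YLR154C-G, at 5925, 5779 and 7291 TPM in the ethanol libraries and 2078, 2206 and 39028 TPM in the glucose libraries. In assembly R64 of the laboratory strain S288C, YLR154C-G and TAR1 overlap the gene of the 25S ribosomal RNA. Counts without glucose replicate 3 stand beside the main counts, and the gene lists below were recounted without it. Because RNA came from whole cultures, fewer cells of a kind and less RNA per cell cannot be told apart.

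The libraries were checked against genes whose response to glucose is well known. Of the genes that glucose represses, the alcohol dehydrogenase gene ADH2 stood at 624, 686 and 706 TPM in the ethanol libraries, against 78.3, 73.9 and 65.8 TPM in the glucose libraries. ICL1, which encodes isocitrate lyase, stood at 1905, 1787 and 1918 TPM in ethanol and 428, 414 and 360.2 TPM in glucose. FBP1, the gluconeogenic fructose-1,6-bisphosphatase, stood at 195, 191 and 207 TPM in ethanol and 368, 366 and 325 TPM in glucose. The first 2 were higher in every ethanol library and FBP1 was lower in every one. The glucose libraries also held 929.7 TPM of the malate synthase gene MLS1, 337 TPM of the lactate permease gene JEN1 and 382 TPM of the hexokinase gene HXK1, all of them genes that glucose represses. Their ethanol means were 1292, 255 and 333 TPM. PCK1, also repressed by glucose, averaged 397 TPM in ethanol and 189 TPM in glucose. The repressed invertase gene SUC2 averaged 2.64 TPM in ethanol and 11.6 TPM in glucose. Genes that glucose induces were low in the glucose libraries. HXK2, the main hexokinase gene of cells on glucose, stood at 5.26 ± 0.697 TPM in ethanol and 5.08 ± 0.534 TPM in glucose (mean ± SD, n = 3 each), and the low-affinity glucose transporter gene HXT1 at 6.53 ± 0.397 TPM in ethanol and 1.37 ± 0.104 TPM in glucose. Most of these levels in the glucose libraries go against their label, although ADH2, ICL1, MLS1 and PCK1 were higher in ethanol. Every medium below is given as labelled.

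**Figure D1:**
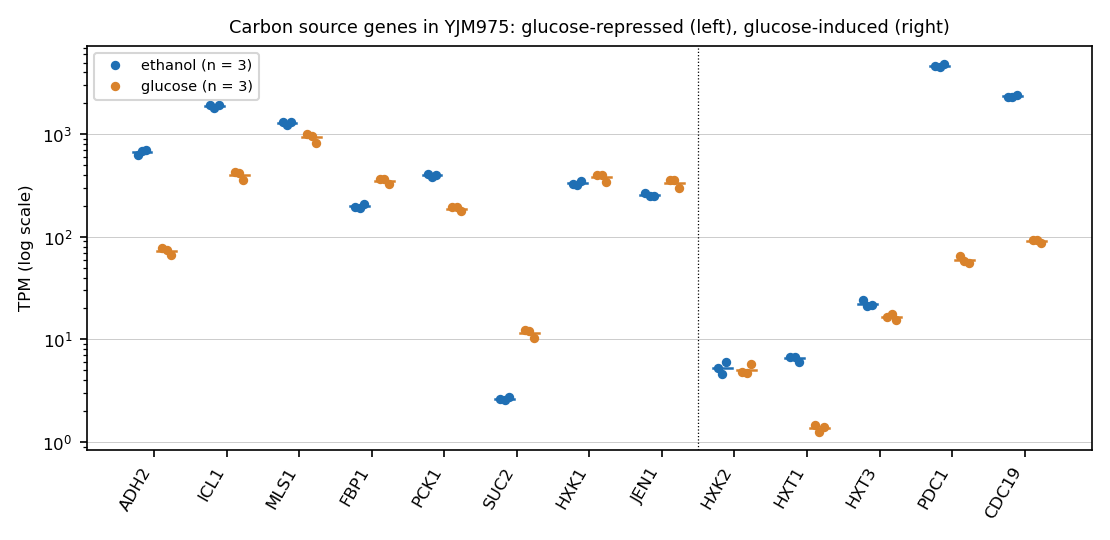
TPM (log scale) of 8 glucose-repressed and 5 glucose-induced genes in the 3 ethanol libraries (left of each pair, blue) and the 3 glucose libraries (orange) of YJM975. Points are libraries and bars are group means. Repressed genes such as ICL1, FBP1 and JEN1 stood above 200 TPM in the glucose libraries, while HXK2 and HXT1 stood below 10 TPM there.

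Most genes differed between the media. A gene was called where limma, on log2(TPM + 1) with adjustment over all 6237 genes, gave an adjusted p below 0.05. In ethanol 3538 genes (56.7%) were higher and 1916 (30.7%) lower, while 783 were not called. By 2-fold or more, 1777 genes (28.5%) were higher and 649 (10.4%) lower. A change of 4-fold or more was seen for 558 higher and 134 lower genes, and of 16-fold or more for 51 higher and 7 lower genes. All 3 ethanol libraries lay above all 3 glucose libraries for 3566 genes (57.2%) and below them for 1896 (30.4%). The median log2 change of all genes was 0.36, with the 25th and 75th percentiles at -0.37 and 1.13 and the 5th and 95th at -1.48 and 2.49. TPM is relative, and this median depends on the scaling. After median centring it was -0.08, with 2572 genes higher and 2918 lower, so that 46.8% of the called genes were higher in place of 64.9%. Without glucose replicate 3 there were 3428 higher and 1969 lower genes, and over 46 gene lists no count of higher or lower members moved by more than 3, and in 35 lists neither moved. Changes below are log2 differences of TPM + 1 ± SE, and list medians are also given relative to the median of all genes. Counts of list members stand against the 56.7% higher and 30.7% lower of all genes. The p-values rest on the spread between replicate cultures, pooled over the 6 groups of both strains.

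**Figure D2:**
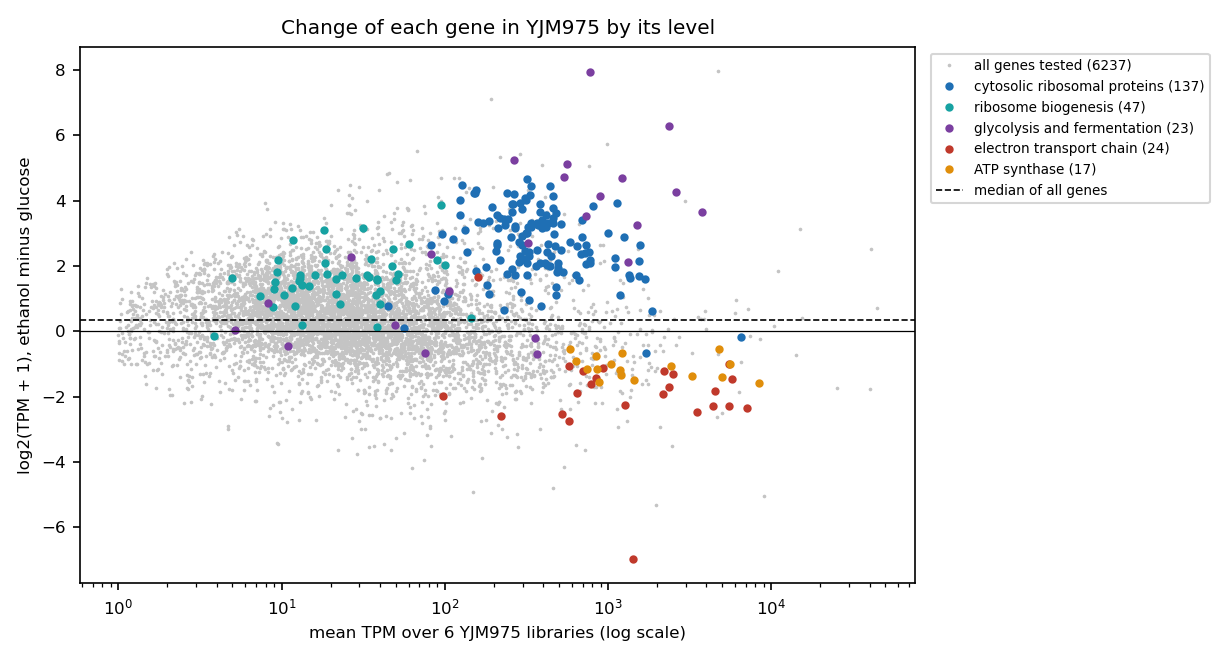
Change of each of the 6237 genes in YJM975 (ethanol minus glucose, log2(TPM + 1)) against its mean TPM over the 6 libraries (log scale). Ribosomal protein and ribosome biogenesis genes lie above the dashed median of all genes (0.36) with few exceptions, and all but 1 of the electron transport and ATP synthase genes lie below 0.

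Most genes of glycolysis and fermentation were much higher in ethanol. Of 23 genes, 18 were higher, 4 lower and 1 not called, with a median log2 change of 2.69, or 2.33 relative to all genes, and together they held 3.27 ± 0.128% of all TPM in ethanol, against 0.323 ± 0.0183% in glucose (SD, n = 3 each). PDC1, the main pyruvate decarboxylase gene, stood at 4576, 4505 and 4847 TPM in ethanol, against 64.3, 58.3 and 55.1 TPM in glucose, a log2 change of 6.27 ± 0.08 (adjusted p = 3.15e-20). PDC6, a minor isoenzyme gene, stood at 1615, 1492 and 1546 TPM in ethanol, against 5.19, 4.95 and 6.02 TPM in glucose, a change of 7.93 ± 0.06. The groups were far apart for both, and the TPM of PDC1 over that of PDC6 was 3.00 ± 0.152 in ethanol and 11.1 ± 1.72 in glucose. CDC19, the pyruvate kinase gene of fermenting cells, stood at 2327, 2326 and 2404 TPM in ethanol and 94.0, 92.3 and 87.1 TPM in glucose. The enolase gene ENO2 changed by 5.24 ± 0.09, the phosphoglycerate kinase gene PGK1 by 4.71 ± 0.07 and the phosphoglycerate mutase gene GPM1 by 4.14 ± 0.07. TDH2 and TDH3, glyceraldehyde-3-phosphate dehydrogenase genes that are near-identical in sequence, changed by 5.13 ± 0.07 and 4.26 ± 0.07, values that depend on how reads were split between them. Of the aldolase gene FBA1, 6974 TPM were found in ethanol and 555 TPM in glucose. Steps that sugar enters by moved less or the other way. The glucokinase gene GLK1, which overlaps another open reading frame, changed by -0.70 ± 0.12 and its paralog EMI2 by -0.68 ± 0.08, HXK2 was not called, and the phosphofructokinase subunit genes PFK1 and PFK2 changed by 1.22 ± 0.07 and 2.35 ± 0.09. Among 13 hexose transporter and sensor genes tested, 7 were higher and 5 lower, or 3 and 7 after median centring or quantile normalization. HXT5, a transporter gene of slow growth, had 812 TPM in ethanol and 256 TPM in glucose.

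Genes that take ethanol to acetyl-CoA moved both ways. Of 16 genes of ethanol and acetate use, 11 were higher and 3 lower, with a median of 0.87, or 0.52 relative to all genes. After median centring 8 were higher and 8 lower. ADH2 changed by 3.19 ± 0.09, and ADH1, the fermentative enzyme gene, by 3.28 ± 0.07, so that ADH1 over ADH2 was 1.79 ± 0.0972 in ethanol and 1.70 ± 0.0845 in glucose. Of the cytosolic aldehyde dehydrogenase gene ALD6 there were 285 ± 8.17 TPM in ethanol and 541 ± 42.1 TPM in glucose, a fall. The mitochondrial ALD4 was not called, at 784 ± 47.1 TPM in ethanol and 755 ± 69.1 TPM in glucose. Neither was ACS1, the acetyl-CoA synthetase gene of non-fermentative growth, at 707 ± 9.96 TPM in ethanol and 671 ± 56.8 TPM in glucose, whereas ACS2, the other acetyl-CoA synthetase gene, changed by 2.35 ± 0.08. ADY2, an acetate transporter gene, changed by 2.26 ± 0.09, and its relatives ATO2 and ATO3 by 1.48 ± 0.06 and 4.69 ± 0.07. In the ethanol libraries ATO3 stood at 190.1, 176 and 185 TPM, against 6.43, 6.65 and 5.51 TPM in glucose.

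Of 14 genes of the glyoxylate cycle and gluconeogenesis, 10 were higher and 3 lower in ethanol. ICL1 changed by 2.22 ± 0.07 and PCK1, the phosphoenolpyruvate carboxykinase gene, by 1.07 ± 0.08. CIT2, the peroxisomal citrate synthase gene, reached 2327 TPM in ethanol, against 950.2 TPM in glucose. The falls were those of FBP1, at -0.83 ± 0.06, of IDP2, the cytosolic isocitrate dehydrogenase gene, at -1.22 ± 0.06, and of PYC1, a pyruvate carboxylase gene, at -1.36 ± 0.08. Of the carriers that move acids over the mitochondrial membrane, the dicarboxylate carrier gene DIC1 changed by 2.76 ± 0.07 and the carnitine carrier gene CRC1 by 3.76 ± 0.06, while SFC1, the succinate-fumarate carrier gene, was not called at 216 TPM in ethanol and 217 TPM in glucose, but was called lower after median centring (-0.45), quantile normalization (-0.22) and omission of the top 50 genes (-0.10). In peroxisomal beta-oxidation, which breaks fatty acids down to acetyl-CoA, 11 of 16 genes were higher and 1 lower, with a median of 1.32, or 0.96 relative to all genes. After median centring or quantile normalization 10 were higher and 6 lower. They included POX1, the acyl-CoA oxidase gene, at 2.28 ± 0.09, POT1, the thiolase gene, at 1.96 ± 0.06, and PEX11, a peroxisome division gene, at 2.71 ± 0.06, whereas FOX2, the gene of the enzyme between these steps, changed by -0.24 ± 0.09, a call that was lost without ethanol replicate 3 or glucose replicate 1 or 2 (-0.22, -0.22 and -0.20).

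Genes of the respiratory chain were lower in ethanol. Of 24 nuclear electron transport genes, 23 were lower in ethanol and 1 was higher, each by 2-fold or more, with a median of -1.85, or -2.21 relative to all genes, and the list held 2.39 ± 0.0111% of all TPM in ethanol, against 8.48 ± 0.200% in glucose. CYC7, the cytochrome c isoform gene known for expression at low oxygen, had the largest fall of any gene tested. It stood at 21.7, 22.6 and 20.4 TPM in ethanol, against 2823, 2897 and 2747 TPM in glucose, a log2 change of -6.97 ± 0.06 (adjusted p = 5.08e-23). Its mean TPM, without the added 1, was 131-fold lower in ethanol. For the main isoform CYC1 the values were 146, 152 and 163 TPM in ethanol and 923, 905 and 864 TPM in glucose. Neither gene's groups overlapped, and CYC1 over CYC7 was 7.15 ± 0.725 in ethanol and 0.318 ± 0.00783 in glucose. In the second pair of oxygen-dependent isoforms both fell. COX5B, the low-oxygen subunit gene of cytochrome c oxidase, changed by -2.60 ± 0.06 and COX5A by -1.71 ± 0.04, and COX5A over COX5B was 17.9 ± 1.70 in ethanol and 9.50 ± 0.163 in glucose. In complex III, QCR9 held 2348 TPM in ethanol and 11930.0 TPM in glucose, and QCR8 and QCR7 changed by -2.47 ± 0.08 and -2.30 ± 0.05. NDI1, the NADH dehydrogenase gene of the inner face, changed by -2.74 ± 0.08 and the outer-face NDE1 by -1.99 ± 0.09. NDE2, the second outer-face enzyme gene, was the exception, at 248, 242 and 241 TPM in ethanol and 82.2, 80.9 and 67.3 TPM in glucose.

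All 17 genes of the ATP synthase and its regulators were lower in ethanol, with a median of -1.14, or -1.50 relative to all genes and a range of -1.57 to -0.53. ATP15, a subunit gene of the central stalk, held 4251 TPM in ethanol and 12660.0 TPM in glucose, and INH1, the inhibitor gene, changed by -1.06 ± 0.05. Among 69 mitochondrial ribosomal protein genes, 50 were lower and 9 higher, with a median of -0.49, or -0.85 relative to all genes, and MRPS17 changed by -1.50 ± 0.06. The tricarboxylic acid cycle was mixed. Of 17 genes, 5 were higher and 9 lower, 3 each way by 2-fold or more, with changes from -1.19 to 3.61. The fumarase gene FUM1 changed by -1.19 ± 0.07 and the mitochondrial malate dehydrogenase gene MDH1 by -1.06 ± 0.07, whereas CIT3, a second-isoform gene of citrate synthase, changed by 1.92 ± 0.09. The aconitase gene ACO1 was not called, at 606 ± 22.9 TPM in ethanol and 649.5 ± 67.9 TPM in glucose, but it was called lower after median centring (-0.54), quantile normalization (-0.26), omission of the top 50 genes from the scaling (-0.19) and with library weights (-0.16).

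Regulators of carbon source use were mostly lower in ethanol too. Of 24, 18 were lower and 2 higher in ethanol, with a median of -0.46, or -0.82 relative to all genes. HAP4, the limiting activator subunit for respiratory genes, stood at 124, 118 and 116 TPM in ethanol, against 598, 550.4 and 519 TPM in glucose, a change of -2.21 ± 0.06. Its DNA-binding partner HAP3 changed by -1.95 ± 0.06. CAT8, SIP4 and ADR1, activators of genes for non-fermentable carbon, changed by -1.74 ± 0.08, -1.34 ± 0.08 and -1.32 ± 0.10. MIG1, the glucose repressor, was not called at 19.2 ± 1.19 TPM in ethanol and 19.9 ± 1.92 TPM in glucose, but was called lower after median centring (-0.48) and quantile normalization (-0.51). PIP2, an activator of oleate-induced genes, changed by 0.59 ± 0.08, or by 0.12 and not called after quantile normalization. SUC2, the invertase gene, was at 2.64 ± 0.101 TPM in ethanol and 11.6 ± 1.08 TPM in glucose, and the maltose permease gene MAL31 at 28.7 ± 0.442 TPM in ethanol and 169 ± 14.2 TPM in glucose.

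Some promoters of members that fell are shown for 2 short motifs. AGGGG, the core of the stress response element bound by Msn2 and Msn4, was searched on both strands of the 250 bases before each start codon in assembly R64 of S288C. It was found in 45.8% of the electron transport promoters, against 19.1% of all 5897 promoters. Among the 100 largest falls it was in 42.5% of the 87 promoters found, and among the 100 largest rises in 14.1% of 92. Lists that mostly rose lay on both sides of the share of all promoters. AGGGG was in 30.4% of the glycolysis and fermentation promoters and 28.6% of those of the glyoxylate cycle and gluconeogenesis. For ribosome biogenesis, cytosolic ribosomal proteins, lysine and sterol synthesis the shares were 10.6, 13.9, 11.1 and 8%. For the heat shock list, which mostly fell, the share was 33.3%. CCAAT, the core of the Hap2/3/4/5 site, was in 70.8% of the electron transport promoters and 31.0% of the 87 promoters of the largest falls, against 35.8% of all. These sequences are those of the reference strain and not of YJM975, and a match is a description of letters, not a site in use. The promoters of CYC7 (chrV:79978-80227, minus strand), NDI1 (chrXIII:29808-30057, minus strand) and PHD1 (chrXI:356498-356747, plus strand) hold AGGGG and that of QCR8 (chrX:106184-106433, plus strand) holds CCAAT. Each is given 5′ to 3′ up to the base before the start codon. Only the motif named for that promoter is in capitals, written CCCCT where AGGGG lies on the other strand. Matches to the other motif stay in lower case, as for CCAAT in the NDI1 window.
CYC7: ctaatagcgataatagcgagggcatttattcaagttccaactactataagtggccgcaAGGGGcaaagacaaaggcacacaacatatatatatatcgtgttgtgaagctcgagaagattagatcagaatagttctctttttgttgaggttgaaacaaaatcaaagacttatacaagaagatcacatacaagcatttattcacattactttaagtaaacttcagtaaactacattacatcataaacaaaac
NDI1: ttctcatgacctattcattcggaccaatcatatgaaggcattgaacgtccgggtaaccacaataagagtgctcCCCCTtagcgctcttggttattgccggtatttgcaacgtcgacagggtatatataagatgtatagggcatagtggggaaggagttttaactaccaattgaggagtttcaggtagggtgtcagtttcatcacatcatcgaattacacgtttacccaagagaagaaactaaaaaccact
PHD1: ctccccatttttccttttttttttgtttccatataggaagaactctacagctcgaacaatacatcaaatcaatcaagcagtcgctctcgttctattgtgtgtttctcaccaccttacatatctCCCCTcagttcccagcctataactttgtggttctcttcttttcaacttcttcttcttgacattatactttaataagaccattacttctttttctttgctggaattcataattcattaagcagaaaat
QCR8: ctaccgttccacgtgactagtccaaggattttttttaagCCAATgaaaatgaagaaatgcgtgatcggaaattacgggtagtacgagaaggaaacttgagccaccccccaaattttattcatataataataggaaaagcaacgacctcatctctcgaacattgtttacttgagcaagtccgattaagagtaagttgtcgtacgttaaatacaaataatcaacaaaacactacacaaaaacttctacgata
The AGGGG match began 192 bases before the start codon in CYC7, 177 in NDI1 and 127 in PHD1, and the CCAAT match 211 bases before it in QCR8.

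**Figure D3:**
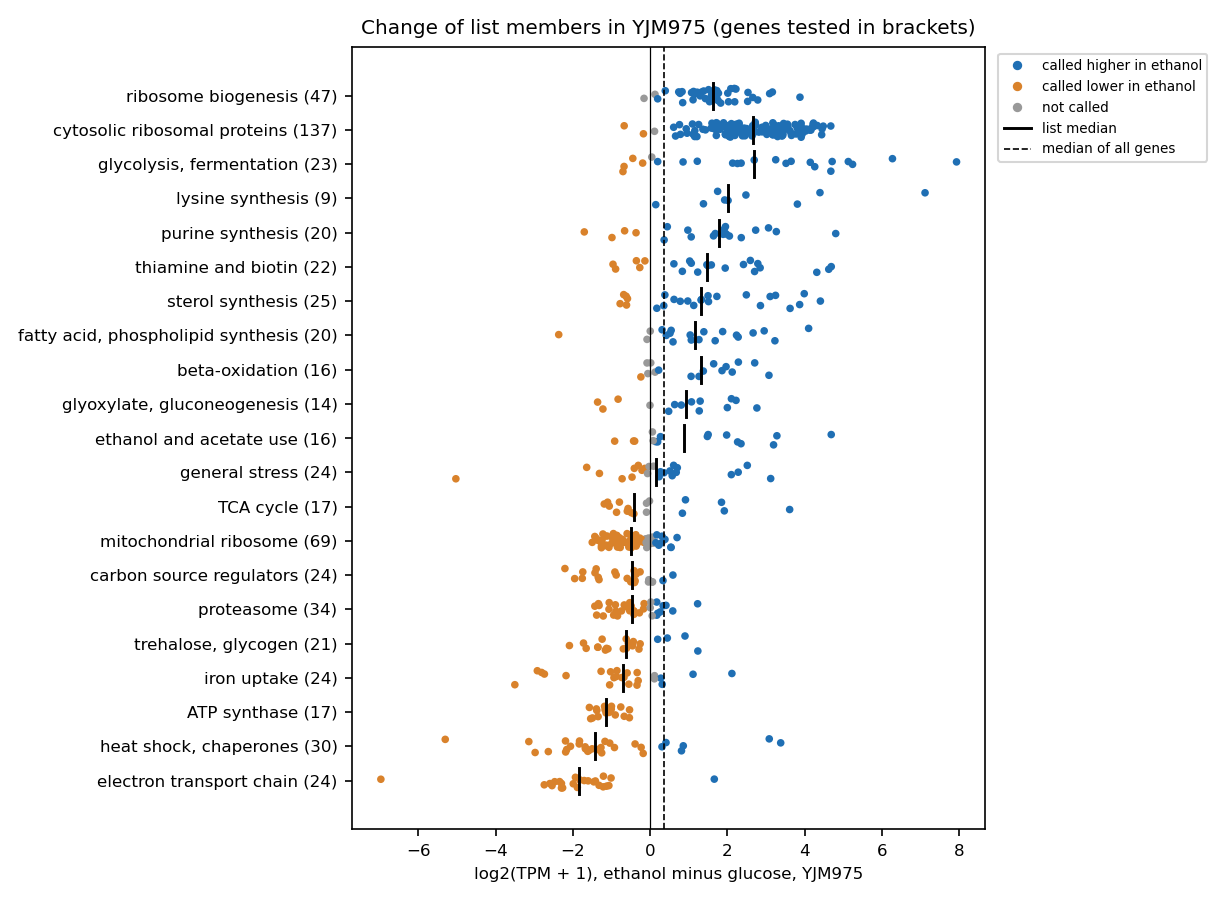
Log2 change of TPM + 1 (ethanol minus glucose, YJM975) for every tested member of 21 gene lists, with the number tested in brackets. Blue points were called higher in ethanol, orange points lower and grey points not called, thick bars are list medians, and the dashed line is the median of all genes (0.36). List medians run from 2.69 for glycolysis and fermentation to -1.85 for the electron transport chain.

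Ribosomal protein genes were higher in ethanol almost without exception. Of 137 cytosolic ribosomal protein genes, 134 were higher, 2 lower and 1 was not called, and 128 were higher by 2-fold or more. Their median was 2.65, or 2.30 relative to all genes, and together they held 10.8 ± 0.454% of all TPM in ethanol, against 2.87 ± 0.0281% in glucose. The 3 ethanol libraries gave 10.3, 11.2 and 10.8% and the 3 glucose libraries 2.84, 2.90 and 2.86%. Groups did not overlap, with an exact two-sided permutation p of 0.1, the smallest that 3 against 3 libraries allow. Of these genes 38 have a near-identical copy, whose separate levels depend on how reads were split. RPL3, a large-subunit protein gene with no such copy, stood at 559.9, 591 and 629 TPM in ethanol, against 33.7, 33.1 and 40.5 TPM in glucose, a change of 4.02 ± 0.07 (adjusted p = 1.07e-18). RPL8A, RPL15A and RPS26B changed by 4.48 ± 0.10, 4.45 ± 0.09 and 4.44 ± 0.07, the first with a near-identical copy. Elongation factor genes moved with them. Of 9 tested, 8 were higher, among them TEF4 at 3.76 ± 0.07 and EFB1 at 2.91 ± 0.06, while TEF1, at 4388 TPM in ethanol and 3359 TPM in glucose, changed by 0.39 ± 0.07 (-0.055 and not called after median centring) and has a near-identical copy in TEF2.

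Of 47 genes for ribosome biogenesis and RNA polymerase I, 45 were higher in ethanol, none was lower, and the median was 1.62, or 1.26 relative to all genes. NSR1, a nucleolin-like gene for small-subunit maturation, stood at 188, 155 and 187 TPM in ethanol, against 6.78, 7.13 and 26.6 TPM in glucose, a change of 3.88 ± 0.31. NOP56, of the small nucleolar particles that methylate ribosomal RNA, stood at 56.9, 54.0 and 60.8 TPM in ethanol and 5.42, 5.02 and 6.10 TPM in glucose. The RNA polymerase I subunit genes RPA49 and RPA43 changed by 3.09 ± 0.09 and 2.78 ± 0.10. The groups did not overlap for these genes. Their promoters are shown since they moved together and share 2 elements known from this class, PAC, searched as GATGAG, and RRPE, searched as AAAATTTT, on both strands in the same window of assembly R64. PAC was found in 93.6% and RRPE in 87.2% of the 47 promoters, against 16.5% and 8.78% of all promoters. Among the 92 promoters found for the 100 largest rises, PAC was in 16.3%, near the share of all promoters, and RRPE in 13.0%. The windows of NSR1 (chrVII:807657-807906, minus strand), NOP56 (chrXII:545847-546096, plus strand) and RPA49 (chrXIV:182609-182858, minus strand) follow, 5′ to 3′ of the gene's strand, with both motifs in capitals and PAC written CTCATC where it lies on the other strand.
NSR1: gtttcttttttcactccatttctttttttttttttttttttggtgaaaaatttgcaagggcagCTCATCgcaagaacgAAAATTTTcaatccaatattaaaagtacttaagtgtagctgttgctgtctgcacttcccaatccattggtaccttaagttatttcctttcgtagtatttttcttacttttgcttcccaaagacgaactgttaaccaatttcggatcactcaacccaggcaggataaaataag
NOP56: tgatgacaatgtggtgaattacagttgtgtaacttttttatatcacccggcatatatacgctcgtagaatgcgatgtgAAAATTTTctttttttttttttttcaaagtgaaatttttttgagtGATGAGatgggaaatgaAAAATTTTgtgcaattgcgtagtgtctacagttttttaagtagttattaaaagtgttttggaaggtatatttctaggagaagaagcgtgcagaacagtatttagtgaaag
RPA49: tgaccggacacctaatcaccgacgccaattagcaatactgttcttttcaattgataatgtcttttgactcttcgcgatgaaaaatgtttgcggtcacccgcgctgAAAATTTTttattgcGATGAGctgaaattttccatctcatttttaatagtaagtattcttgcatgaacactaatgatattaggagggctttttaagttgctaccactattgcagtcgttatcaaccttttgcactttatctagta
The PAC motif began 187 bases before the start codon in NSR1, 127 in NOP56 and 130 in RPA49. In the ribosomal protein promoters, by contrast, PAC was in 10.2% and RRPE in 6.57%.

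Heat shock genes were mostly lower in ethanol. Of 30 genes of heat shock proteins and chaperones, 24 were lower and 6 higher, with a median of -1.43, or -1.79 relative to all genes. HSP30, a plasma membrane protein gene induced by heat and ethanol stress, stood at 101, 84.4 and 103 TPM in ethanol, against 4093, 4123 and 3305 TPM in glucose, a change of -5.30 ± 0.10. CPR6, a cyclophilin gene that acts with Hsp90, changed by -3.14 ± 0.06. The main rises were those of SSB1 and SSB2, at 3.08 ± 0.09 and 3.38 ± 0.07, near-identical genes whose Hsp70 products sit on ribosomes. Of 34 proteasome genes, 23 were lower and 8 higher, and RPN4, their transcriptional activator gene, changed by -1.43 ± 0.07. Of 21 genes of trehalose and glycogen, 17 were lower and 4 higher, with the glycogenin gene GLG2 at -2.09 ± 0.05, the glycogen synthase genes GSY1 and GSY2 at -1.73 ± 0.08 and -1.35 ± 0.08, and the branching enzyme gene GLC3 at -1.66 ± 0.09.

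General stress genes were among the most abundant transcripts and did not move as 1 group. Of 24 general stress genes, 12 were higher and 9 lower, with a median of 0.16, or -0.20 relative to all genes that turned negative after median centring (-0.28), and they held 17.3 ± 0.258% of all TPM in ethanol, against 9.59 ± 0.192% in glucose. SIP18, a desiccation-induced hydrophilin gene, stood at 65481, 74708 and 67084 TPM in ethanol, against 12335, 12138 and 11779 TPM in glucose, and alone held 6.91% of all TPM in ethanol and 1.21% in glucose. GRE1, its relative, stood at 27917, 26034 and 26434 TPM in ethanol and 3136, 3253 and 2872 TPM in glucose, a change of 3.12 ± 0.05. The cytosolic catalase gene CTT1 changed by 2.10 ± 0.07 and its peroxisomal counterpart CTA1 by 2.12 ± 0.06. SPI1, a cell wall protein gene of stationary phase, went the other way, at 538, 528 and 530.0 TPM in ethanol and 17868, 17712 and 16652 TPM in glucose, a change of -5.03 ± 0.06. TMA10, a small ribosome-associated protein gene, fell to 11540.0 TPM in ethanol, against 38668 TPM in glucose, and RGI1, known for induction in respiratory growth, changed by -3.65 ± 0.10, while its paralog RGI2 changed by 2.65 ± 0.04. HSP12, at 17476 ± 1108 TPM in ethanol and 13166 ± 960.3 TPM in glucose, was called higher, and DDR2, at 55367 ± 2242 TPM in ethanol and 34017 ± 367 TPM in glucose, also. After median centring HSP12 was no longer called, at -0.031. Of 21 wall mannoprotein genes 14 were higher and 6 lower, or 11 and 7 after median centring. Among them TIP1 changed by 5.34 ± 0.07, CWP1 by 4.11 ± 0.05 and CWP2 by 3.97 ± 0.08. CWP2 held 5582 TPM in ethanol and 356 TPM in glucose.

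Genes of amino acid synthesis were mostly higher in ethanol. All 9 lysine genes were called higher, with a median of 2.02, or 1.66 relative to all genes. LYS9, the saccharopine dehydrogenase gene of the next-to-last step, stood at 393, 362 and 399.6 TPM in ethanol, against 1.79, 2.02 and 1.56 TPM in glucose, a change of 7.11 ± 0.05 (adjusted p = 4.48e-23). LYS12, homoisocitrate dehydrogenase, changed by 4.39 ± 0.05, and LYS20 and LYS21, near-identical homocitrate synthase genes, by 1.38 ± 0.06 and 3.81 ± 0.06. LYS5, whose product activates Lys2, changed by 0.14 ± 0.06, but by -0.30 and called lower after median centring, and it was not called without ethanol replicate 2 or 3 or glucose replicate 1 or 3 (0.10 to 0.15). Of 12 leucine, isoleucine and valine genes 10 were higher and 2 lower, led by ILV3, the dihydroxyacid dehydratase gene, at 2.60 ± 0.06. Of 15 arginine genes 11 were higher and 4 lower, with the synthesis genes ARG1 and ARG4 at 3.41 ± 0.06 and 3.17 ± 0.07, while the breakdown genes CAR1 and CAR2 changed by -2.62 ± 0.08 and -1.82 ± 0.07. Among 26 sulfur genes 19 were higher and 5 lower. Of 16 genes of ammonium uptake and glutamate, 11 were higher and 3 lower. The higher ones included GAP1, the general amino acid permease gene, at 104, 92.5 and 97.6 TPM in ethanol and 3.17, 3.45 and 2.97 TPM in glucose, DAL80, a repressor of nitrogen catabolism, at 4.48 ± 0.09, and GLN1, glutamine synthetase, at 2.65 ± 0.08. The proline oxidase gene PUT1 changed by -1.91 ± 0.07.

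Of 20 purine synthesis genes 16 were higher and 4 lower, with IMD3, the inosine monophosphate dehydrogenase gene, at 4.80 ± 0.07 and GUA1, the next step to guanine nucleotides, at 3.26 ± 0.08. The 3 glycine cleavage genes of that list, GCV1, GCV2 and GCV3, were lower, at -1.71 ± 0.07, -0.99 ± 0.07 and -0.66 ± 0.06. Pyrimidine synthesis was split, 7 higher and 6 lower of 13, with URA1, the dihydroorotate dehydrogenase gene, at 48.9 ± 1.74 TPM in ethanol and 397 ± 22.8 TPM in glucose, and URA7, a CTP synthase gene, at a change of 2.92 ± 0.10. Of 22 thiamine and biotin genes 17 were higher and 5 lower, with a median of 1.48, or 1.12 relative to all genes. BIO2, the biotin synthase gene, stood at 233, 233 and 239 TPM in ethanol, against 8.19, 7.98 and 8.34 TPM in glucose, and VHT1, the biotin transporter gene, changed by 2.70 ± 0.09. THI4, which makes the thiazole part of thiamine, changed by 4.31 ± 0.07.

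Lipid synthesis genes were mostly higher in ethanol. Of 25 sterol genes 20 were higher and 5 lower, with a median of 1.32, or 0.96 relative to all genes. ERG25, the C-4 methyl sterol oxidase gene, stood at 395, 375 and 358 TPM in ethanol, against 17.6, 16.5 and 16.2 TPM in glucose, a change of 4.41 ± 0.06. ERG3, the C-5 desaturase gene, and ERG1, the squalene epoxidase gene, changed by 3.99 ± 0.09 and 3.62 ± 0.06. The sterol regulators UPC2 and ECM22 were among those that fell, at -0.59 ± 0.08 and -0.78 ± 0.08. Of 20 genes of fatty acid and phospholipid synthesis 17 were higher, including OLE1, the only fatty acid desaturase gene of this yeast, at 775, 693 and 856 TPM in ethanol and 46.8, 44.7 and 40.9 TPM in glucose. ACC1, acetyl-CoA carboxylase, changed by 3.23 ± 0.09 and FAS2, a fatty acid synthase subunit gene, by 2.95 ± 0.08. PIS1, the phosphatidylinositol synthase gene, was the 1 that fell, at -2.37.

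Iron uptake genes were mostly lower in ethanol. Of 24 iron genes 18 were lower and 4 higher, and the list held 0.153 ± 0.00567% of all TPM in ethanol, against 0.779 ± 0.0501% in glucose. FIT2, a wall mannoprotein gene that retains siderophore iron, stood at 405, 376 and 408 TPM in ethanol, against 4354, 4912 and 4272 TPM in glucose. FIT3 changed by -2.92 ± 0.08 and the heme oxygenase gene HMX1 by -2.81 ± 0.09. FTR1, the high-affinity iron permease gene, changed by 2.11 ± 0.08, while its partner oxidase gene FET3 changed by -0.31 ± 0.08. Of 12 zinc genes 4 were higher and 6 lower, the lower ones including the regulator gene ZAP1 at -2.98 ± 0.08 and the transporter gene ZRT1 at -2.11 ± 0.07. Of 21 phosphate genes 14 were higher and 7 lower, or 11 and 9 after median centring, and the list held 0.0860 ± 0.000931% of all TPM in ethanol, against 0.103 ± 0.00488% in glucose. Its higher genes included GIT1, a glycerophosphoinositol transporter gene, at 4.32 ± 0.06 and the phosphate transporter gene PHO84 at 1.28 ± 0.07.

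The list of cyclins and cell cycle regulators had 22 tested genes, 14 of them higher and 6 lower in ethanol, a share of higher genes near that of all genes, with a median of 0.74, or 0.38 relative to all genes. After quantile normalization 10 were higher and 10 lower. CLN3, the G1 cyclin gene that responds to nutrients, stood at 64.2, 51.0 and 62.1 TPM in ethanol, against 13.3, 13.0 and 11.9 TPM in glucose, and CDC21, thymidylate synthase, changed by 2.97 ± 0.08. Of 10 histone genes 4 were higher and 5 lower. IME1, the master regulator of meiosis, which glucose represses, stood at 93.5, 93.1 and 81.8 TPM in ethanol, against 2.01, 2.10 and 2.28 TPM in glucose. SPS100, a spore wall gene, stood at 2056, 1742 and 2021 TPM in ethanol and 38.6, 38.6 and 30.0 TPM in glucose, yet over 29 meiosis genes tested 11 were higher and 13 lower. Both strains are labelled as a/α diploids, in which mating genes are off. The 22 genes of that kind summed to 0.0741 ± 0.00395% of all TPM in ethanol, against 0.0403 ± 0.00443% in glucose, most of it the pheromone genes MFA1, at 389 TPM in ethanol and 152 TPM in glucose, and MFA2, at 149 TPM in ethanol and 151 TPM in glucose. Of the 20 tested, 15 were higher and 3 lower, led by the agglutinin subunit gene AGA2, at 57.6 ± 11.4 TPM in ethanol and 1.80 ± 0.724 TPM in glucose. Whether other cell types were present was not tested. In the Ras and protein kinase A pathway RAS1 changed by 3.85 ± 0.09 and IRA2, a Ras inhibitor gene, by -1.46 ± 0.12, while RAS2, at 140.4 ± 7.61 TPM in ethanol and 129 ± 8.57 TPM in glucose, was not called. Of 37 autophagy genes 19 were higher and 11 lower, near the shares of all genes. After median centring 13 were higher and 19 lower.

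Of 12 glycerol genes 8 were higher in ethanol and 4 lower. The glycerol-3-phosphate dehydrogenase genes GPD1 and GPD2, of glycerol synthesis, changed by 1.72 ± 0.05 and 1.95 ± 0.06, and the glycerol kinase gene GUT1, of its use, by -0.23 ± 0.07. DAK2, a dihydroxyacetone kinase gene, stood at 0.790, 0.701 and 0.725 TPM in ethanol, against 19.6, 19.7 and 15.4 TPM in glucose. Peroxide defence was split, 10 higher and 12 lower of 24, with the glutathione synthetase gene GSH2 at 2.33 ± 0.07 and the peroxiredoxin gene TSA2 at -1.74 ± 0.05. So was the list of stationary phase genes, 12 higher and 13 lower of 25, in which SNZ1, of vitamin B6 synthesis, changed by 1.47 ± 0.06.

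The largest single changes reached beyond these lists. On the log2(TPM + 1) scale DPA10 (YLR307C-A) and PDC6 had the largest rises, at 7.95 ± 0.22 and 7.93 ± 0.06, less than their errors apart, and with a pseudocount of 0.1 the changes were 7.99 for DPA10 and 8.15 for PDC6. DPA10 stood at 9493, 9714 and 8893 TPM in ethanol, against 25.8, 28.2 and 68.0 TPM in glucose. Its highest glucose library, replicate 3, was still far below every ethanol library. ARO10, the phenylpyruvate decarboxylase gene of aromatic alcohol formation, stood at 142, 123 and 136 TPM in ethanol and 1.87, 1.76 and 2.16 TPM in glucose. GPP1, a glycerol-3-phosphate phosphatase gene, averaged 768 TPM in ethanol and 22.9 TPM in glucose, and the aquaporin gene AQY1 changed by 5.06 ± 0.07. YAL037C-B, which is not in the R64 annotation used for names, varied more between its ethanol libraries than the other 11 of the 12 largest rises, at 749, 373 and 567 TPM in ethanol and 10.5, 12.8 and 11.6 TPM in glucose. Among the falls, BTN2, a gene of protein sorting that is induced by ethanol and heat stress, stood at 8.66, 8.90 and 7.91 TPM in ethanol, against 301, 298 and 268 TPM in glucose. PHD1, a transcription factor gene of filamentous growth, stood at 56.5, 52.9 and 59.7 TPM in ethanol and 1039, 1058 and 956 TPM in glucose, and the neighbouring open reading frame MMO1 (YKL044W) changed by -3.87 ± 0.14. YNR014W, YOL131W, YIL046W-A, BSC4 and YMR254C, which carry no role here, changed by -4.80, -4.19, -3.94, -3.75 and -3.64.

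**Figure D4:**
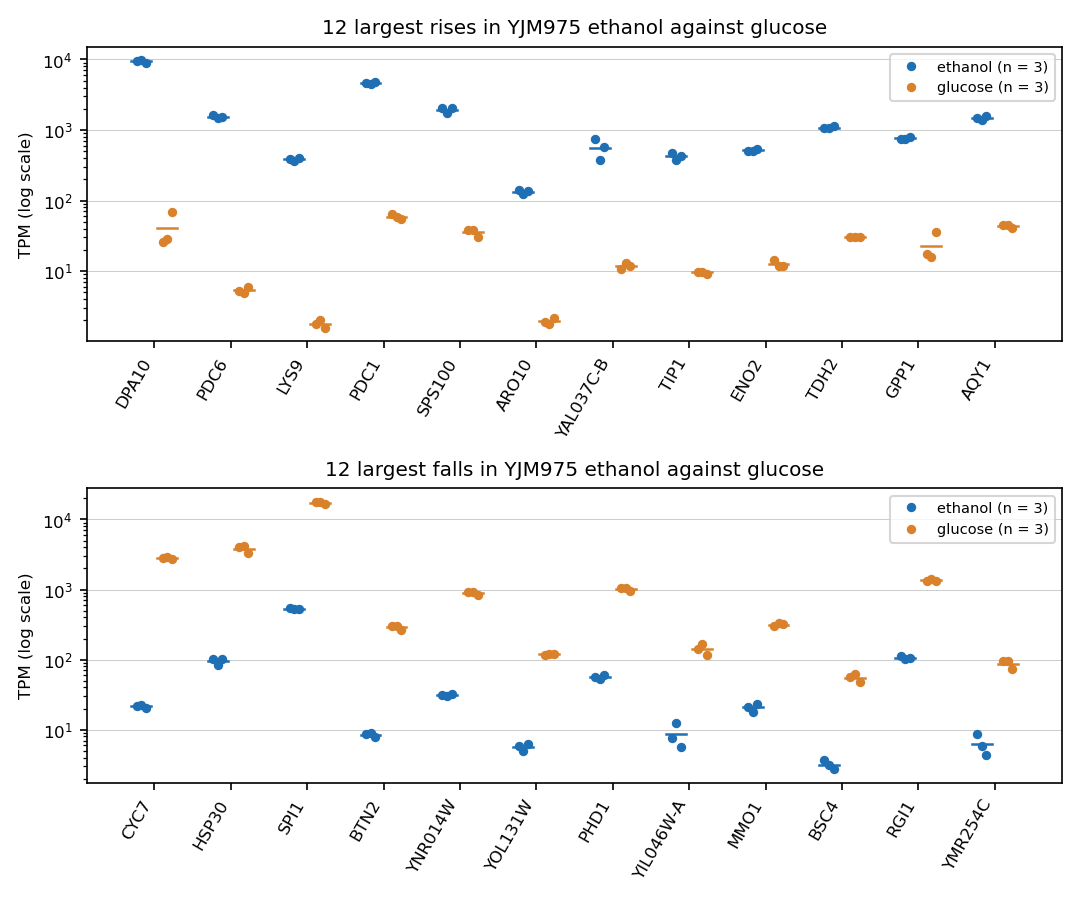
TPM (log scale) in each YJM975 library of the 12 genes with the largest rises (top) and the 12 with the largest falls (bottom), with ethanol (blue) left of glucose (orange) and bars at group means. The spread within a group is small beside the gap. Among the rises the points spread most for YAL037C-B in ethanol and for DPA10 and GPP1 in glucose, and among the falls for YIL046W-A and YMR254C in ethanol.

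The glycerol libraries of YJM975 share the glucose libraries as their baseline and the run label of the ethanol libraries, so their levels are set beside those above without a test. Cytosolic ribosomal protein genes held 5.65% of all TPM in glycerol, between the ethanol and the glucose share, and electron transport genes 3.48%, also between them. CYC7 averaged 156 TPM in glycerol, PDC1 7100.5 TPM and PDC6 1930.4 TPM, the last 2 above their ethanol means of 4643 and 1551 TPM. LYS9 averaged 15.1 TPM and ARO10 18.3 TPM in glycerol, far below their ethanol means of 385 and 134 TPM. NSR1 averaged 27.5 TPM in glycerol, DPA10 1016 TPM and SIP18 87802 TPM.

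The same contrast in RM11, which shares no library with that in YJM975, allowed a test of the difference between the strains' responses. The RM11 libraries labelled glucose also go against that label, with means of 1791 TPM of ICL1, 809 TPM of FBP1 and 2.30 TPM of HXK2. The YJM975 change minus the RM11 change was called for 3552 genes upward (57.0%) and 1274 downward (20.4%) of 6237, while 1411 were not called. After median centring these counts were 2230 upward and 2608 downward, so the excess of upward differences depends on the scaling. The changes were wider in YJM975, with an SD across genes of 1.24 against 0.639 in RM11. Both strains moved the same way for 1744 genes called higher in both and 1400 called lower in both. Called in opposite directions with a called difference were 616 genes higher in YJM975 and lower in RM11, and 122 lower in YJM975 and higher in RM11.

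By role, the largest median differences among the 46 lists were those of the cytosolic ribosome and of ribosome biogenesis. Called differences in the lists stand against 57.0% upward and 20.4% downward over all genes, and were not recounted by list after median centring. For ribosome biogenesis the median change was 1.62 in YJM975 and -0.16 in RM11, and 46 of 47 genes had a called upward difference. This list held 0.221% of all TPM in ethanol and 0.0697% in glucose in YJM975, against 0.138% and 0.140% in RM11. For cytosolic ribosomal proteins the medians were 2.65 in YJM975 and 0.59 in RM11, with 134 of 137 upward. Their share of all TPM in RM11 was 9.82% in ethanol and 6.54% in glucose. For beta-oxidation the medians were 1.32 in YJM975 and -0.19 in RM11, with 15 of 16 upward. These genes held 0.169% of all TPM in ethanol and 0.0904% in glucose in YJM975, and 0.177% in either medium in RM11. The strains thus lay closer in ethanol than in glucose. The median difference of this list was 1.23. Larger ones included elongation factors at 1.64 (8 of 9 upward) and ammonium and glutamate at 1.53 (12 of 16). Glycolysis and fermentation stood at 1.52 (19 of 23) and purine synthesis at 1.45 (19 of 20). Downward differences were called for 22 of 24 electron transport genes, whose medians were -1.85 in YJM975 and -0.81 in RM11, for 13 of 17 ATP synthase genes, for 27 of 34 proteasome genes and for 9 of 10 histone genes. The medians of lysine synthesis were 2.02 in YJM975 and 2.12 in RM11.

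Among single genes, CYC7 had the largest downward difference, at -5.08 ± 0.08 (adjusted p = 9.8e-18). In RM11 it averaged 63.1 TPM in ethanol and 236 TPM in glucose. DPA10 had the largest upward difference, at 7.05 ± 0.31, with RM11 means of 10805 TPM in ethanol and 5782 TPM in glucose. PDC6 differed by 4.71 ± 0.09. The biotin genes BIO3 and BIO4 differed by 4.80 ± 0.11 and 4.22 ± 0.10. BIO3 changed by 4.62 ± 0.08 in YJM975 and -0.18 ± 0.08 in RM11, where it was not called, and BIO4 by 2.85 ± 0.07 in YJM975 and -1.37 ± 0.07 in RM11. THI4 differed by 4.37 ± 0.10, with RM11 means of 22.8 TPM in ethanol and 23.8 TPM in glucose. ADF1, which overlaps FYV5 on the other strand, stood at 17.5, 23.0 and 7.34 TPM in the ethanol libraries of YJM975 and near 0 in its glucose libraries and in RM11, and strand was not stated for these libraries. Downward differences were also largest for YMR254C at -3.69 ± 0.26, HPF1, a wall mannoprotein gene, at -3.03 ± 0.15, HOT13, a mitochondrial import helper gene, at -2.78 ± 0.08, YGR035C at -2.71 ± 0.11 and YOL131W at -2.67 ± 0.17. Of these, YGR035C was lower in ethanol in YJM975, at -1.07, and changed by 1.63 ± 0.08 in RM11.

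**Figure D5:**
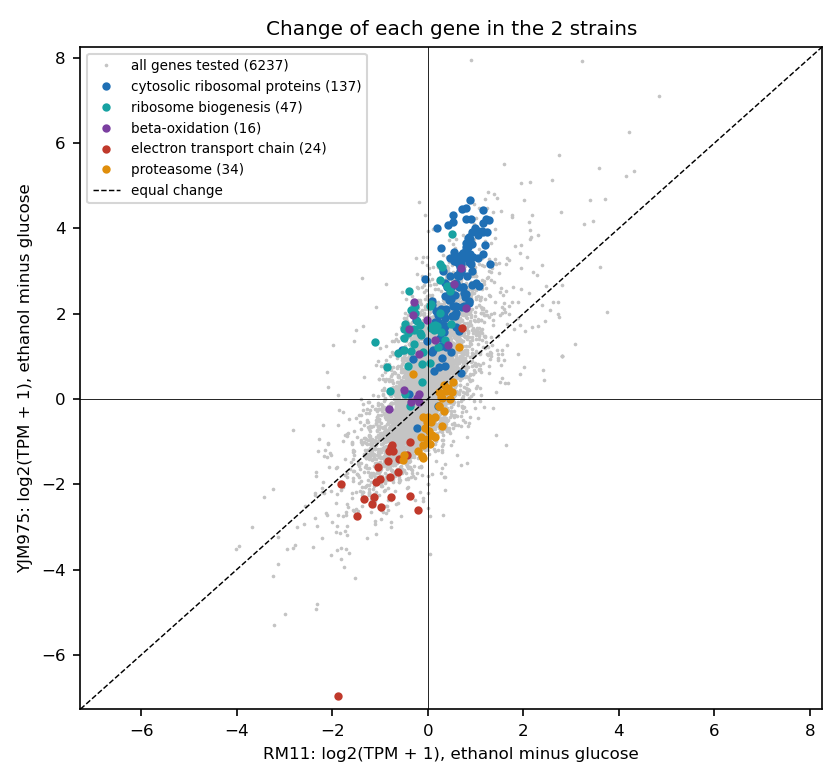
Log2 change of TPM + 1 (ethanol minus glucose) of each of the 6237 genes in YJM975 (vertical) against that in RM11 (horizontal), with the dashed line of equal change. Nearly all ribosome genes lie above the line, at a median of 2.65 in YJM975 and 0.59 in RM11 for the cytosolic proteins, while electron transport and proteasome genes lie mostly below it.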

How the data were processed

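RNA of 6 YJM975 cultures, 3 labelled ethanol and 3 labelled glucose, was compared, and the other 12 libraries of the series entered the same fit. Per the labels' protocols, frozen cells went to a sequencing institute, which enriched polyadenylated RNA and prepared the libraries. The authors deposited 1 table of TPM made with kallisto, a tool listed in the submitters' processing notes. Its version and settings, the genome build and the transcript set were not given in the sources used here. Reads shared by similar transcripts are divided by kallisto according to likelihood, which leaves levels of near-identical genes uncertain. Divergence of YJM975 from the transcript set can also lower a level. Because TPM is relative and holds no depth, counting error is unknown, and more of an abundant transcript means less of every other.

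Transcripts averaging 1 TPM or more in the 6 libraries (6237) were tested with limma 3.58.1 in R 4.3.3 on log2(TPM + 1), a scale that understates changes of low genes. The model had 6 group means over 18 libraries, 12 residual degrees of freedom and a variance trend, with Benjamini-Hochberg adjustment over all tested genes and calls at an adjusted p below 0.05. Strain differences are the YJM975 change minus the RM11 change in that model. TPM shares were compared with an exact two-sided permutation test. Code was tested on simulated data.

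Names, overlaps, promoters and copies (BLAST 2.17.0, 95% identity over 50% of the length) came from RefSeq assembly R64 of S288C. By locus name 5929 of 6612 transcripts matched it and 683 did not. Among tested genes 153 have a near-identical copy, 118 overlap another gene and 528 carry no annotation there. Of all transcripts, 124 are 0 in all 18 libraries.

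Members and lists were chosen with earlier results of these data known. Named genes are the 12 largest rises and falls among calls whose groups do not overlap and whose higher mean reaches 10 TPM, at most 4 called members per list (any member where a list has 25 genes or fewer), reference genes, and the 6 largest strain differences each way. YLR154C-G and SPO24 were chosen after their values were seen. Settings varied were the pseudocount (0.1 and 5), the filter on low values, scaling (median centring, quantile normalization, omission of the top 50 genes), variance estimation, the replicate block, and omission of each library. Scaling without TAR1 and the YLR154 transcripts was added after the data were seen. Plots used Python 3.11.15 with matplotlib 3.10.9.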

Additional observations from a re-analysis of the deposited data

Results flagged for a closer look

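The strains' responses to the labelled medium differed by a test of the difference itself, limma on the YJM975 change minus the RM11 change. It was called upward for 3552 genes (57.0%) and downward for 1274 (20.4%), counts that turned to 2230 and 2608 after median centring. Strain differences by list were not recounted under that scaling. Single genes, with the difference in log2 units, were CYC7 at -5.08, YMR254C at -3.69, HPF1 at -3.03, HOT13 at -2.78, YGR035C at -2.71 and YOL131W at -2.67 on the downward side. On the upward side were DPA10 at 7.05, BIO3 at 4.80, PDC6 at 4.71, THI4 at 4.37, BIO4 at 4.22 and ADF1 at 3.94, the last overlapping FYV5. Upward differences were called for 46 of 47 ribosome biogenesis genes, 134 of 137 cytosolic ribosomal protein genes and 15 of 16 beta-oxidation genes. Downward ones were called for 22 of 24 electron transport genes, 13 of 17 ATP synthase genes, 27 of 34 proteasome genes and 9 of 10 histone genes. These lists are not a ranking by size. Elongation factors (median difference 1.64, 8 of 9 upward) and purine synthesis (1.45, 19 of 20 upward) were above beta-oxidation (1.23). Trehalose and glycogen (-0.49, 14 of 21 downward) lay below ATP synthase (-0.33). The run label differs between the media in both strains, and its part in these differences was not tested.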

How the results depend on the processing

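Counts of called genes moved by over 1.5 times under median centring and quantile normalization and under no other setting tried. With median centring 2918 genes were lower in YJM975 ethanol, 1141 higher and 1189 lower by 2-fold or more, and 2230 upward and 2608 downward strain differences were called. With quantile normalization these were 2907, 1059, 1059, 2211 and 2537. Both settings are built to hold the centre of all genes, whose median change moved to -0.08 from 0.36. Genes higher in ethanol ranged from 2563 to 3585 over the 14 settings that keep every library. Leaving out each library in turn gave 3428 to 3526 genes higher, 1827 to 1969 lower, 1751 to 1809 higher and 620 to 693 lower by 2-fold or more, and 3413 to 3583 upward and 1169 to 1330 downward strain differences.

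Same-numbered ethanol and glucose replicates had deviations correlated at 0.0132, 0.0426 and 0.112, and those of other numbers at -0.101 to 0.0844. Not every library correlated best with its own number. With 3 libraries per group, these values cannot decide whether same-numbered cultures were paired. With the replicate block 3536 genes were higher and 1915 lower, 1777 and 649 by 2-fold or more, and 3546 upward and 1270 downward strain differences were called, and the call of no printed gene changed. A printed gene counts as reversed if it was called and changed sign, or was not called and became called with the opposite sign. Sign changes of genes that stayed uncalled are not counted. Of 183 printed genes, 9 were reversed with median centring, ACS1 (-0.36), ALD4 (-0.38), CUP1-1 (-0.15), HSP12 (-0.031), HXK2 (-0.40), LYS5 (-0.30), MFA2 (-0.44), RAS2 (-0.32) and TEF1 (-0.055), and 2 with quantile normalization, HXK2 (-0.60) and LYS5 (-0.32). CUP1-2, equal in value to CUP1-1, is not counted apart. With median centring the medians of the hexose transport (-0.18), general stress (-0.28), Ras (-0.36), pyrimidine (-0.16), autophagy (-0.25) and isoform pair (-0.40) lists turned negative. Without glucose replicate 3 YLR154C-G was called, at 1.56. The cause of these changes beyond the scaling was not tested.

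TPM holds no depth, so low genes carry an unknown counting error. Each medium has 1 run label, each group has 3 cultures of 1 strain, and levels of most glucose-repressed genes checked go against the glucose label.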

Other observations

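Formaldehyde and copper genes were not described above. SFA1, whose product oxidises glutathione-bound formaldehyde, stood at 384, 377 and 385 TPM in ethanol, against 1323, 1293 and 1151 TPM in glucose, a log2 change of -1.71 ± 0.06 with no overlap of the groups. FDH1, a formate dehydrogenase gene, changed by -1.80 ± 0.24. Of 8 copper genes tested 4 were higher and 4 lower in ethanol. The metallothionein genes CUP1-1 and CUP1-2 are near-identical copies with equal values in the table, 973 ± 73.9 TPM in ethanol and 793 ± 48.1 TPM in glucose (SD, n = 3 each), a change of 0.29 ± 0.08 that was -0.15 and not called after median centring. Of 10 sucrose and maltose genes tested 8 were lower and none higher, and of 5 carnitine genes 2 were higher and 3 lower. SPO24 was the third most abundant transcript over the 6 libraries and was chosen here for its level, at 18140.0 ± 1392 TPM in ethanol and 62016 ± 4961 TPM in glucose.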
